A study of Homo sapiens with 4 samples.

Results

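Genes that are widely used to place a cell between an epithelial and a mesenchymal state were followed across a knockdown experiment in liver cancer cells. The set consists of the 10 genes CDH1, KRT8, KRT18, CDH2, VIM, FN1, SNAI1, SNAI2, ZEB1 and ZEB2. They were picked by gene symbol from the 18398 transcripts measured in each library, and each symbol matched 1 transcript. Huh1 and Huh7 are established human hepatocellular carcinoma cell lines. Cells of each line were transfected with 15 nM of either CDCA8siRNA, which targets the mitotic gene CDCA8, or NCsiRNA, a negative control siRNA, and RNA was sequenced at 48 h. Each of the 4 conditions gave 1 library, all from transfected cells, and no library of untransfected cells was analysed. With 1 library per condition, the spread between cultures of a condition could not be measured.

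Epithelial cells hold to each other through E-cadherin and carry a cytoskeleton of keratin filaments. In an epithelial to mesenchymal transition, E-cadherin and the keratins are lost, while N-cadherin, vimentin filaments and secreted fibronectin are gained, and zinc finger transcription factors of the SNAI and ZEB families repress the E-cadherin gene by binding E-box sequences in its promoter. Hepatocytes are epithelial cells of an unusual kind, since they normally carry keratins 8 and 18 as their keratin pair, make N-cadherin as well as E-cadherin, and secrete fibronectin into plasma.

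Each value is an RPKM (reads divided by the length of the transcript and by the depth of the library), so levels of different genes are compared per length. Where a line has a pair of values, the one with NCsiRNA comes first. Between 12198097 and 13385089 reads lay behind each library, as deduced from the value of 1 read, and a transcript was at 0 in 2568 to 3169 rows per library. CDCA8 itself, which encodes the borealin subunit of the chromosomal passenger complex, was at 24.1 and 5.86 RPKM in Huh1 and at 51.5 and 7.36 RPKM in Huh7, so that 24.3% and 14.3% were left. Changes are given as the difference of log2(RPKM + 1), where the added 1 RPKM shrinks the change of a gene with a low level. The SD beside a change within 1 cell line covers the sampling of reads only, and it holds no variation between cultures. A change of 2-fold was used as a threshold within a cell line. The effects of siRNA and of cell line over all 4 libraries were tested with limma, a linear model fitted to all 12148 genes with at least 1 RPKM in some library, with Benjamini-Hochberg adjustment. The fit leaves 1 residual degree of freedom per gene, which is the difference between the responses of the 2 cell lines. limma pools this with a mean-variance trend over all genes, which weighed as a median of 7.48 further degrees of freedom. Each SE and p-value thus combines the disagreement of the 2 lines for that gene with values of other genes of similar level. A gene on which the lines disagree widely has a larger SE, as for KRT18 (0.139) beside VIM (0.0751). The SE is therefore no separate measure of that disagreement. Neither the SE nor the p-value says anything about variation between cultures. Gene positions are those of GENCODE 29 on GRCh38, while the submitters' notes name hg19 for the reads.

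Stretches upstream of the pair of mesenchymal genes with the largest cell line differences in opposite directions are shown first, because VIM was higher in Huh7 and FN1 was higher in Huh1. They come from RefSeq on GRCh38.p14 and end before the first annotated base of each gene. The VIM stretch is chr10:17227991-17228240 on the plus strand and the FN1 stretch is chr2:215436173-215436318 on the minus strand, both read 5′ to 3′ in the direction of the gene. Capitals mark matches on either strand to any of 6 motifs, which were the E-box CAGGTG, the cyclic AMP response element TGACGTCA, the AP-1 site TGANTCA, the GC box GGGCGG, the CCAAT box CCAAT and the TATA box TATAAA.
VIM: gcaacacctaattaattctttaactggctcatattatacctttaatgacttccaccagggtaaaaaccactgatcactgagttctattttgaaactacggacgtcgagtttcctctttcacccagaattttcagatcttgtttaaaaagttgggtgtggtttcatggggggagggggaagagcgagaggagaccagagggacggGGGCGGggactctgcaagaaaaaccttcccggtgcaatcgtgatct
FN1: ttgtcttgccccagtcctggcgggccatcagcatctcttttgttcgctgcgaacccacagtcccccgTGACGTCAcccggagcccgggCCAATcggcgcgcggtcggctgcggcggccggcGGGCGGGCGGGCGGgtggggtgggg
The 2 stretches differ in base composition. The VIM stretch is 46.0% G and C over 250 bases with 8 CpG, below the median of 58.0% over the same stretch of all 35116 RefSeq windows. The FN1 stretch is 74.0% G and C over 146 bases with 19 CpG, above the median of 56.2% for its length. It holds 1 cyclic AMP response element, 183 bases before the RefSeq gene start, a motif found in 0.4% of windows over the same stretch. It also holds 1 CCAAT box 162 bases before the start, a motif found in 18.3% of windows, and 3 overlapping matches to the GC box, found in 25.1%. The VIM stretch holds 1 GC box 46 bases before the start, where 42.6% of windows hold one. Neither stretch holds the E-box letters, found in 17.5% of windows over the VIM stretch and in 11.3% over the FN1 stretch. The AP-1 site, in 6.6% and 3.7% of windows, and the TATA box, in 10.7% and 6.2%, had no match in either stretch. Unlike the VIM stretch, the FN1 stretch leaves out the bases nearest to the RefSeq gene start. The full FN1 window of 250 bases up to that start held 6 matches to the GC box. It held 0 exact matches to the TATA box letters TATAAA, and similar letters were not counted. A match of letters is a description of the sequence and does not show binding.

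**Figure D1:**
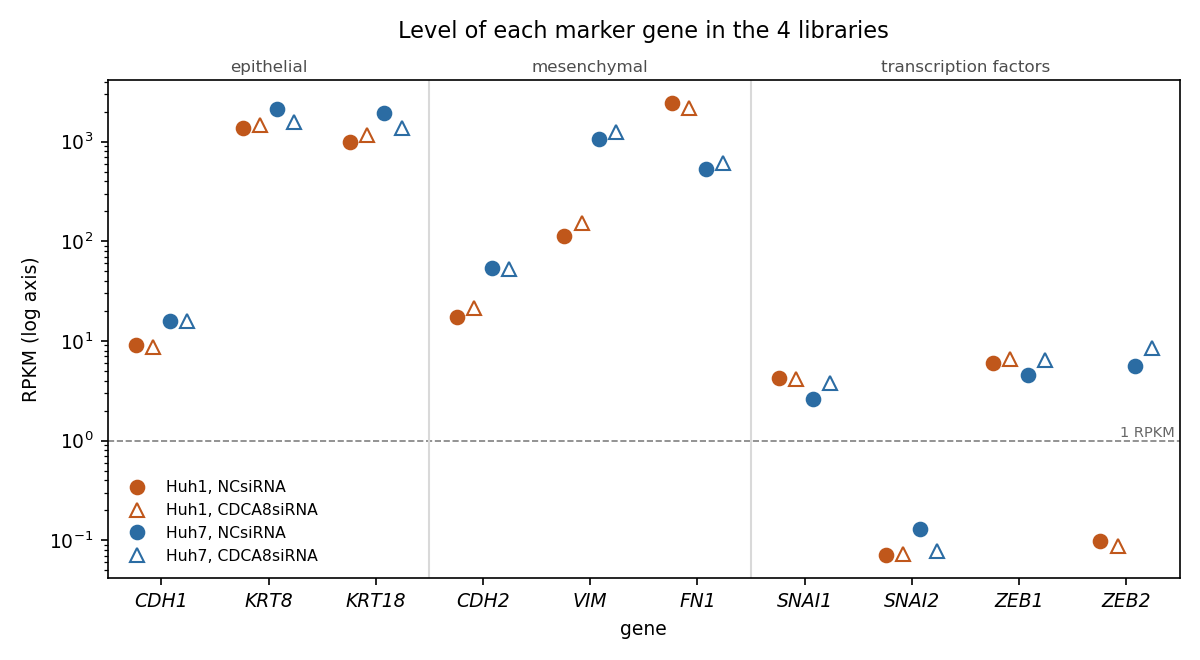
Level of the 10 genes in each library, in RPKM on a log axis, with 1 point per library. Circles are NCsiRNA and open triangles CDCA8siRNA, and the dashed line is 1 RPKM. KRT8 and KRT18 lie near the top in both lines, FN1 is highest in Huh1 and VIM is higher in Huh7, SNAI2 stays below 1 RPKM in all 4, and ZEB2 lies below 1 RPKM in Huh1 and above it in Huh7.

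The levels spanned more than 4 orders of magnitude. In Huh1, the order from highest to lowest was FN1, KRT8, KRT18, VIM, CDH2, CDH1, ZEB1, SNAI1, ZEB2 and SNAI2. In Huh7, it was KRT8, KRT18, VIM, FN1, CDH2, CDH1, ZEB2, ZEB1, SNAI1 and SNAI2. The values of the 2 libraries of a line overlapped between neighbours in this order for KRT8 and KRT18 and for ZEB2 and ZEB1 in Huh7, and for no neighbours in Huh1. Transcripts of keratins, cadherins of both classes, vimentin and fibronectin were thus all present in both lines. The N-cadherin transcript was above the E-cadherin transcript in each library. The ratio of CDH2 to CDH1 was 1.92 with NCsiRNA and 2.47 with CDCA8siRNA in Huh1, and it was 3.44 and 3.31 in Huh7.

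Most of these genes differed between the cell lines. Of the 9 genes tested, 6 were higher in Huh7 (CDH1, KRT8, KRT18, CDH2, VIM and ZEB2), against a background of 42.5% of all genes tested, and 1 was higher in Huh1 (FN1), against 28.7%. SNAI1 and ZEB1 did not pass the test, and SNAI2 was below the filter. ZEB2 passed the filter through Huh7 only. The median log2 difference of the 9 genes was 0.61 (Huh7 minus Huh1), and that of all genes tested was 0.14. Quantile normalization moved the median of all genes to -0.01, so a log2 difference near 0.1 between the lines depends on scaling. With so high a background, the number of calls is not in itself a property of these genes.

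Changes with CDCA8siRNA were small. In Huh1, 8 of the 10 reached 1 RPKM in a library and 0 of these changed 2-fold, against 0.494% of all genes. In Huh7, 9 reached it and 0 changed 2-fold, against 1.57%. With limma over both lines, 1 of 9 was higher with CDCA8siRNA (VIM), against 3.74% of all genes tested, and 0 were lower, against 2.65%. VIM was also the 1 gene of the 9 with an unadjusted limma p under 0.05, where 2767 of all 12148 genes tested had one. That count is thus not in itself a property of these genes. Their median log2 change was 0.10, and that of all genes tested was 0.03. Every siRNA call by limma given here and for the other genes below was lost without the filter on low values and with the cell line left out of the fit, where limma called 0 genes (2050 and 75 at an unadjusted p under 0.05), and without the mean-variance trend 45 genes passed.

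**Figure D2:**
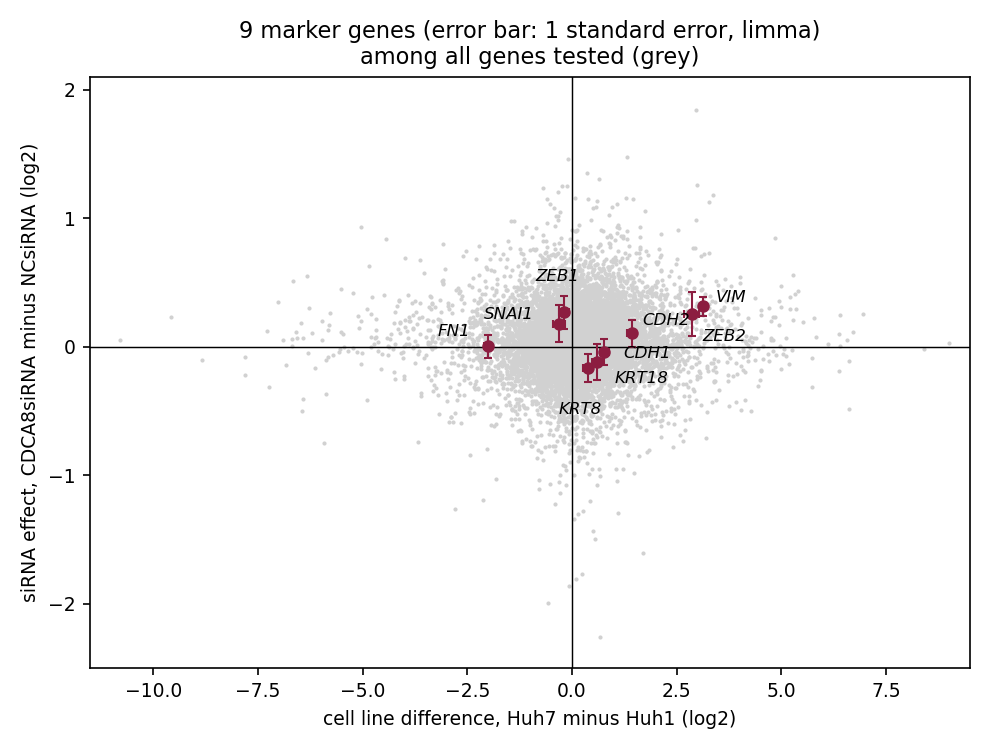
Effect of CDCA8siRNA (vertical axis, log2) against the difference between cell lines (horizontal axis, log2, Huh7 minus Huh1) from the limma fit to 4 libraries, for 9 marker genes (dark points, error bars of 1 standard error) and all 12148 genes tested (grey). VIM at 3.13 and ZEB2 at 2.86 lie far to the right, FN1 at -2.02 far to the left, and all 9 lie within 0.32 of 0 on the vertical axis.

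CDH1 encodes E-cadherin, the adhesion receptor of epithelial junctions (chr16:68737225-68835548, plus strand, 16 exons). It measured 9.15 RPKM with NCsiRNA and 8.59 with CDCA8siRNA in Huh1, and 15.8 with both siRNAs in Huh7. Both Huh7 libraries were above both Huh1 libraries, and within a line the siRNAs were close together. The log2 change with CDCA8siRNA was -0.08 in Huh1 (sampling SD 0.076) and 0.00 in Huh7 (sampling SD 0.062), or -0.02 in Huh7 with quantile normalization. Over both lines it was -0.04 (SE 0.104, limma adjusted p = 0.858). The cell line difference was 0.77 on the log2 scale (SE 0.104, limma adjusted p = 0.00018). An antisense gene, AC099314.1, shares exonic bases with CDH1, and its reads cannot be told apart here, since no source states that the counting used strand.

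KRT8 and KRT18 encode the partner proteins of the hepatocyte keratin filament and lie next to each other on chromosome 12, on opposite strands (KRT8 at chr12:52897187-52949954 and KRT18 at chr12:52948871-52952901). KRT8 measured 1360 RPKM with NCsiRNA and 1467 with CDCA8siRNA in Huh1, and 2133 and 1569 in Huh7. KRT18 measured 986 and 1169 RPKM in Huh1, and 1938 and 1382 in Huh7. For both genes the Huh7 library with NCsiRNA was the highest of the 4 and the Huh1 library with NCsiRNA the lowest. In Huh7 the level with CDCA8siRNA was 0.735 times that of its control for KRT8 and 0.713 times for KRT18, nearer to the Huh1 values.

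The values of both keratins pointed in opposite directions in the 2 lines. KRT8 was 0.11 higher with CDCA8siRNA on the log2 scale in Huh1 (sampling SD 0.011) and at -0.44 in Huh7 (sampling SD 0.01). KRT18 was at 0.25 in Huh1 (sampling SD 0.014) and at -0.49 in Huh7 (sampling SD 0.012). The difference between the lines, Huh7 minus Huh1, was -0.55 for KRT8 and -0.73 for KRT18, or 37.5 and 40.9 times its sampling SD, but with 0 residual degrees of freedom it could not be tested against variation between cultures. Over both lines, neither passed the test (KRT8 -0.17, SE 0.111, limma adjusted p = 0.419, and KRT18 -0.12, SE 0.139, limma adjusted p = 0.653).

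The 2 keratins also kept close to each other in level. The ratio of KRT8 to KRT18 was 1.38 and 1.26 in Huh1, with NCsiRNA and CDCA8siRNA, and 1.1 and 1.14 in Huh7. The cell line difference was 0.37 for KRT8 (SE 0.111, limma adjusted p = 0.0150) and 0.61 for KRT18 (SE 0.139, limma adjusted p = 0.00397). The call of KRT8 was lost without the filter on low values (limma adjusted p = 0.348), without the mean-variance trend (0.0738) and with siRNA left out of the fit (0.102), and that of KRT18 was lost without the filter (0.256). With quantile normalization both differences were over 1.5 times larger, at 0.77 and 0.97. The keratins have many processed copies, 50 named pseudogenes for KRT8 and 67 for KRT18 in GENCODE 29, and some KRT8 and KRT18 exons overlap on opposite strands, so reads may be shared and both values are uncertain.

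CDH2 encodes N-cadherin (chr18:27950966-28177446, minus strand, 16 exons), the classical cadherin of neural and mesenchymal cells that hepatocytes also carry. It measured 17.5 RPKM with NCsiRNA and 21.2 with CDCA8siRNA in Huh1, and 54.5 and 52.4 in Huh7. The lines did not overlap, and the difference between siRNAs was small beside that between lines. The cell line difference was 1.42 on the log2 scale (SE 0.107, limma adjusted p = 4.8e-06). With CDCA8siRNA the log2 change was 0.26 in Huh1 (sampling SD 0.058) and -0.06 in Huh7 (sampling SD 0.038), and over both lines it was 0.10 (SE 0.107, limma adjusted p = 0.611). CDH2 shares exonic bases with the antisense gene AC110015.1. Its pattern over the 4 libraries was closest to those of C8orf40 (distance 0.03 on the log2 scale) and KLF9 (0.03), the Euclidean distance between the 4 values of log2(RPKM + 1) less their mean. KLF9, a zinc finger transcription factor, measured 0.231 and 0.451 RPKM in Huh1 and 2.71 and 2.47 in Huh7. Its Huh1 values lie under the added 1 RPKM, which shrinks its changes, so its closeness to CDH2 depends on that addition. The same holds below for nearest genes with values under 1 RPKM in a line.

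VIM encodes vimentin, the intermediate filament protein of mesenchymal cells (chr10:17228259-17237593, plus strand, 10 exons). It measured 114 RPKM with NCsiRNA and 151 with CDCA8siRNA in Huh1, and 1067 and 1245 in Huh7. Huh7 was 9.39 times as high as Huh1 with NCsiRNA and 8.26 times with CDCA8siRNA, and in each line the CDCA8siRNA library was the higher of the pair. The cell line difference was 3.13 on the log2 scale (SE 0.0751, limma adjusted p = 7.05e-09).

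The log2 change of VIM with CDCA8siRNA was 0.40 in Huh1 (sampling SD 0.033) and 0.22 in Huh7 (sampling SD 0.012). Over both lines VIM rose by 0.31 (SE 0.0751, limma adjusted p = 0.0464). This call is near its threshold. It was lost with a pseudocount of 0.1 RPKM (limma adjusted p = 0.0577), without the filter on low values (0.445), without the mean-variance trend (0.193) and with the cell line left out of the fit (1.0), while with quantile normalization, upper quartile scaling and a filter at 5 RPKM it ranged from 0.00727 to 0.043. Quantile normalization gave 0.35 in both lines, over 1.5 times the Huh7 value above.

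VIM relative to KRT18 was higher with CDCA8siRNA in both lines as a ratio of RPKM, without a test. The ratio was 0.115 and 0.129 in Huh1 and 0.551 and 0.901 in Huh7, where the VIM and KRT18 values pointed in opposite directions. In Huh1 the rise depended on scaling. Quantile normalization there gave nearly equal log2 changes, 0.3545 for VIM and 0.3537 for KRT18. The genes closest to VIM in pattern were TEX15 (distance 0.14) and HSPG2 (0.14), which encodes the basement membrane proteoglycan perlecan and measured 1.71 and 2.47 RPKM in Huh1 and 26.1 and 31.0 in Huh7. VIM shares exonic bases with the antisense genes VIM-AS1 and AL133415.1.

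FN1 encodes fibronectin (chr2:215360440-215436172, minus strand, 46 exons), a glycoprotein of plasma and extracellular matrix, and it ran against the other mesenchymal genes between the lines. It measured 2461 RPKM with NCsiRNA and 2157 with CDCA8siRNA in Huh1, and 532 and 610 in Huh7. Reads of FN1 made up 2.08% and 1.82% of the Huh1 libraries and 0.449% and 0.514% of the Huh7 libraries. Huh1 was thus far above Huh7, 4.63 times with NCsiRNA and 3.54 times with CDCA8siRNA.

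The cell line difference of FN1 was -2.02 on the log2 scale (SE 0.0898, limma adjusted p = 2.1e-07). With CDCA8siRNA the log2 change was -0.19 in Huh1 (sampling SD 0.004) and 0.20 in Huh7 (sampling SD 0.0084), so the lines came closer together. Over both lines the changes cancelled, at 0.00 (SE 0.0898, limma adjusted p = 0.987). The nearest pattern was that of MYO1A (distance 0.10), a brush border myosin that measured 3.99 and 3.52 RPKM in Huh1 and 0.181 and 0.338 in Huh7.

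**Figure D3:**
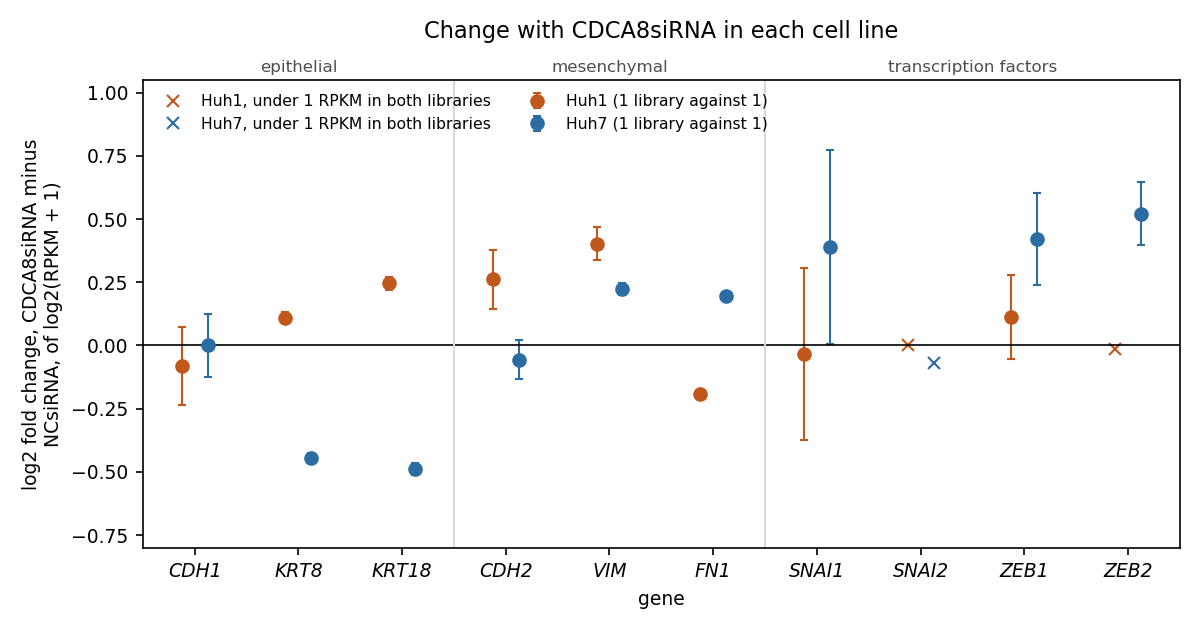
Log2 change with CDCA8siRNA in Huh1 and in Huh7, from log2(RPKM + 1) of 1 library against 1. Error bars are 2 sampling SDs and cover read sampling only, and crosses mark genes under 1 RPKM in both libraries of the line. KRT8 and KRT18 lie above 0 in Huh1 and below 0 in Huh7, FN1 the reverse, and VIM lies above 0 in both.

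Among the transcription factors, SNAI1 encodes Snail (chr20:49982999-49988886, plus strand), a repressor of CDH1. It measured 4.25 RPKM with NCsiRNA and 4.13 with CDCA8siRNA in Huh1, and 2.64 and 3.78 in Huh7. The Huh7 library with NCsiRNA was the lowest, and the other 3 lay within a narrow range. The log2 change was -0.03 in Huh1 (sampling SD 0.17) and 0.39 in Huh7 (sampling SD 0.192), from only 54.4 and 78.1 reads in Huh7. Neither the siRNA effect (0.18, SE 0.146, limma adjusted p = 0.514) nor the cell line difference (-0.32, SE 0.146, limma adjusted p = 0.0814) passed the test. With quantile normalization the cell line difference was -0.56 and passed (limma adjusted p = 0.0027).

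SNAI2 encodes Slug (chr8:48917604-48921740, minus strand) and was close to absent from the reads. It measured 0.0709 and 0.0737 RPKM in Huh1, and 0.13 and 0.0773 in Huh7. These values correspond to 1.9 to 3.2 reads per library by transcript length, too few for a fold change or a test at this depth.

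ZEB1 encodes a zinc finger and homeodomain repressor of CDH1 (chr10:31318495-31529814, plus strand). It measured 6.05 RPKM with NCsiRNA and 6.63 with CDCA8siRNA in Huh1, and 4.56 and 6.46 in Huh7. As with SNAI1, the Huh7 library with NCsiRNA was the lowest and the other 3 lay close together. The log2 change was 0.11 in Huh1 (sampling SD 0.082) and 0.42 in Huh7 (sampling SD 0.091). Neither the siRNA effect (0.27, SE 0.127, limma adjusted p = 0.254) nor the cell line difference (-0.19, SE 0.127, limma adjusted p = 0.212) passed the test. With quantile normalization the cell line difference was -0.36 and passed (limma adjusted p = 0.0211).

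ZEB2 encodes the second ZEB repressor (chr2:144364364-144524583, minus strand) and was the transcription factor that separated the lines. It measured 0.098 RPKM with NCsiRNA and 0.0886 with CDCA8siRNA in Huh1, and 5.6 and 8.48 in Huh7. About 12.5 and 11.1 reads lay behind the Huh1 values and 652 and 992 behind the Huh7 values. The ratio of Huh7 to Huh1 was 57.2 with NCsiRNA and 95.7 with CDCA8siRNA, larger than those of VIM. The cell line difference was 2.86 on the log2 scale (SE 0.172, limma adjusted p = 1.35e-06), and it was 5.18 with a pseudocount of 0.1 RPKM, where that of VIM was 3.14.

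ZEB2 made up a different share of the ZEB pair in each line. In Huh1 the ratio of ZEB2 to ZEB1 was 0.0162 with NCsiRNA and 0.0134 with CDCA8siRNA, and in Huh7 it was 1.23 and 1.31. With CDCA8siRNA the log2 change of ZEB2 in Huh7 was 0.52 (sampling SD 0.063), the largest among the 9 genes above the filter in that line, and over both lines it was 0.25 (SE 0.172, limma adjusted p = 0.427). The nearest patterns were C9orf167 (distance 0.06) and EHD2 (0.13), a membrane ATPase of caveolae that measured 0.275 and 0.386 RPKM in Huh1 and 7.21 and 9.85 in Huh7. ZEB2 shares exonic bases with the antisense gene ZEB2-AS1.

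Other epithelial genes differed between the lines in both directions. Of 39 measured, 32 were tested, 14 were higher in Huh7, 12 were higher in Huh1 and 6 did not pass, where 42.5% and 28.7% of all genes were higher in Huh7 and in Huh1, with a median cell line difference of 0.14 beside 0.14 for all genes. Single genes with large differences, chosen after their values were seen, were KRT7, a keratin of bile duct and other ductal epithelia, at 84.4 and 81.7 RPKM in Huh1 and 0.66 and 0.572 in Huh7, and KRT19, another ductal keratin, at 12.0 and 20.5 RPKM in Huh1 and 110.5 and 112.3 in Huh7. CLDN4, a tight junction claudin chosen likewise, measured 42.7 and 46.5 RPKM in Huh1 and 0 and 0.0511 in Huh7. KRT7 was thus near 0 in Huh7, while KRT19 was present in both lines. Among regulators of the epithelial state, the splicing factor ESRP1 and the transcription factors GRHL2, OVOL1 and OVOL2 were under 1 RPKM in all 4 libraries. Their relatives were present, with ESRP2 at 16.2 and 18 RPKM in Huh1 and 12.5 and 11.6 in Huh7, and GRHL1 at 1.78 and 2.77 in Huh1 and 4.21 and 4.23 in Huh7. The epithelial transcription factor ELF3 measured 41.1 and 55.0 RPKM in Huh1 and 24.7 and 27.0 in Huh7.

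With CDCA8siRNA, 2 of the 32 other epithelial genes were higher and 0 were lower by limma, against 3.74% and 2.65% of all genes, and their median change was 0.12 beside 0.03. Both are desmosome genes. DSG2, a desmosomal cadherin, was at 17.7 and 23.4 RPKM in Huh1 and at 18.4 and 26.9 in Huh7 (log2 change 0.45, SE 0.099, limma adjusted p = 0.0349). PKP2, a desmosomal plaque protein, was at 11.4 and 18.2 RPKM in Huh1 and at 28.8 and 39.7 in Huh7 (0.54, SE 0.101, limma adjusted p = 0.0206). CLDN1, chosen after its values were seen, had the signs of the keratins, at 140.9 and 189 RPKM in Huh1 and 299.6 and 221.8 in Huh7.

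**Figure D4:**
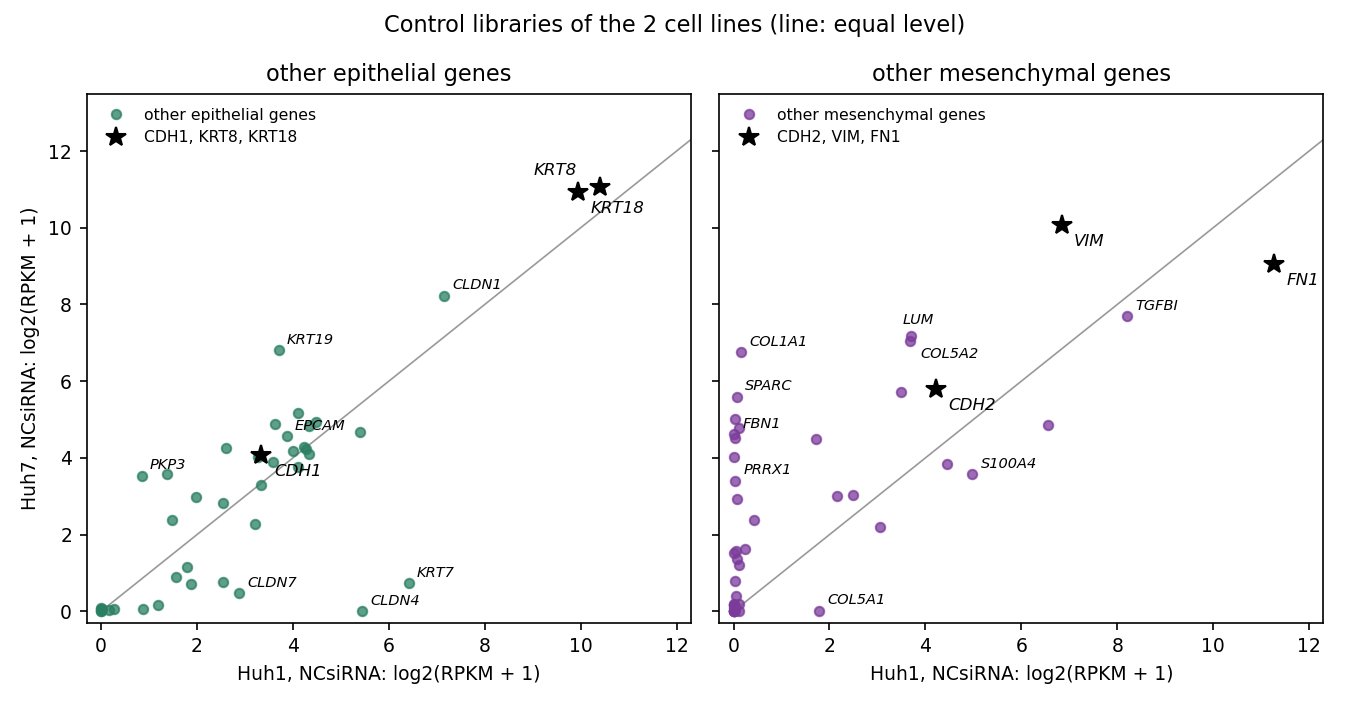
Other epithelial genes (left, 39) and other mesenchymal genes (right, 41) in the NCsiRNA libraries, as log2(RPKM + 1) in Huh1 (horizontal axis) and Huh7 (vertical axis), with the 6 structural marker genes as stars and a line at equal level. Epithelial genes lie on both sides of the line, while many mesenchymal genes lie near 0 in Huh1 and well above it in Huh7, and FN1 lies below the line.

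Other mesenchymal genes lay mostly on the Huh7 side, as CDH2 and VIM did. Of 41 measured, 28 were tested. Of these, 22 were higher in Huh7, against 42.5% of all genes, and 6 were higher in Huh1, against 28.7%. The median cell line difference was 2.00 beside 0.14. Only 12 reached 1 RPKM in a Huh1 library, and 27 did in a Huh7 library. A gene that passed the filter through 1 line could hardly come out higher in the other. The counts and the median therefore partly reflect the filter. COL1A1, a chain of fibrillar collagen I, measured 0.115 and 0.122 RPKM in Huh1 and 107 and 125 in Huh7, and SPARC, a matrix glycoprotein, 0.0476 and 0.0241 in Huh1 and 47.5 and 66.7 in Huh7. The transcription factor PRRX1 measured 0.0184 and 0 RPKM in Huh1 and 9.61 and 12.2 in Huh7. These 3, and S100A4 below, were chosen after their values were seen. Genes on the FN1 side included COL5A1, NT5E, S100A4, TCF3 and TGFBI. S100A4, a calcium-binding protein, measured 30.5 and 32.0 RPKM in Huh1 and 10.9 and 6.94 in Huh7. TWIST1, TWIST2 and SNAI3, further factors of the transition, were under 1 RPKM in all 4 libraries.

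With CDCA8siRNA, 5 of the 28 other mesenchymal genes were higher and 0 were lower by limma, against 3.74% and 2.65% of all genes, and their median change was 0.23 beside 0.03. LUM, the matrix proteoglycan lumican, was at 11.9 and 25.7 RPKM in Huh1 and at 142.9 and 190 in Huh7 (log2 change 0.72, SE 0.138, limma adjusted p = 0.0227). TAGLN, an actin-binding protein of smooth muscle, was at 2.27 and 3.31 RPKM in Huh1 and at 21.4 and 44.4 in Huh7 (0.71, SE 0.15, limma adjusted p = 0.031). The other 3 were COL5A2, a collagen V chain (0.39, limma adjusted p = 0.0408), NT5E, the surface enzyme CD73 (0.75, limma adjusted p = 0.00977), and TCF3, a basic helix-loop-helix factor that is widely expressed (0.78, limma adjusted p = 0.00495).

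At the 2-fold threshold, LUM passed in Huh1, and CNN1, TAGLN and TNC passed in Huh7. In Huh7, CNN1, the smooth muscle calponin, was at 6.67 and 15.3 RPKM, and TNC, the matrix protein tenascin C, at 1.97 and 5.82. Both were under 0.05 RPKM in Huh1, and over both lines neither passed limma (adjusted p = 0.257 and 0.232).

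Of 9 genes listed as intermediate filament linkers, 5 rose and 0 fell with CDCA8siRNA by limma, where 3.74% and 2.65% of all genes did, with a median change of 0.49 beside 0.03. NES, which is itself a filament protein, the nestin that pairs with vimentin, was at 3.15 and 5.7 RPKM in Huh1 and at 106 and 213.7 in Huh7 (0.85, SE 0.108, limma adjusted p = 0.00525), and its change in Huh7 passed 2-fold. PPL, periplakin, was at 2.87 and 6.12 RPKM in Huh1 and at 6.01 and 9.64 in Huh7 (0.74, SE 0.125, limma adjusted p = 0.0155). DST, dystonin, measured 0.53 (limma adjusted p = 0.0177) and PLEC, plectin, 0.49 (limma adjusted p = 0.0325) as log2 changes, and PKP2 is given above. DSP, EPPK1, EVPL and MACF1 did not pass the test.

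Of 16 genes of cadherin and catenin adhesion, which include the cadherins CDH3, CDH6 and CDH17, 14 were tested. With CDCA8siRNA, 2 of these were higher and 0 lower, where 3.74% and 2.65% of all genes were. At an unadjusted limma p under 0.05 there were 7 of the 14, where 2767 of all 12148 genes tested were. The median change was 0.20 beside 0.03 for all genes. CDH17, the liver-intestine cadherin, was at 22.7 and 35.3 RPKM in Huh1 and at 2.76 and 5.92 in Huh7 (0.75, SE 0.113, limma adjusted p = 0.0103), and VCL, vinculin, at 37.1 and 49.6 RPKM in Huh1 and 77.5 and 98 in Huh7 (0.37, SE 0.0856, limma adjusted p = 0.0402). CTNNB1, beta-catenin, chosen after its values were seen, measured 98.6 and 104.6 RPKM in Huh1 and 166.4 and 161.4 in Huh7. Between the lines, 9 of the 14 were higher in Huh7 and 3 in Huh1, beside the same shares of all genes as above.

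Of 10 integrin subunits of fibronectin receptors, 7 were tested. Between the lines, 5 were higher in Huh7 and 1 in Huh1, where 42.5% and 28.7% of all genes were. With CDCA8siRNA, 0 changed by limma, where 3.74% of all genes were higher and 2.65% lower. At an unadjusted limma p under 0.05 there were 0 of the 7, where 2767 of all 12148 genes tested were. ITGB1, the common beta chain, measured 189 and 207.3 RPKM in Huh1 and 414.8 and 410.7 in Huh7, and its partner ITGA5 18.1 and 17.8 in Huh1 and 49.9 and 56.6 in Huh7. These 2 were chosen after their values were seen.

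Transcripts of genes whose proteins act with SNAI and ZEB factors, or govern their turnover, were mostly present in both lines. Of 16 measured, 15 were tested, 10 were higher in Huh7, against 42.5% of all genes, and 0 in Huh1, against 28.7%. With CDCA8siRNA, 1 was higher, against 3.74%, and 0 were lower. That gene was HDAC1, a histone deacetylase, which was at 75.5 and 104.4 RPKM in Huh1 and at 87.5 and 107.7 in Huh7 (0.38, SE 0.0855, limma adjusted p = 0.0378).

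Hepatocyte markers moved with siRNA and with cell line. All 10 were above 1 RPKM in every library, and their summed level was 5375 and 4130 RPKM in Huh1 and 3358 and 2354 in Huh7. With CDCA8siRNA, 8 of 10 fell by limma, where 2.65% of all genes did (AHSG, ALB, APOA1, APOB, FGB, HNF4A, SERPINA1 and TF), with a median change of -0.49, while AFP (-0.07, limma adjusted p = 0.753) and TTR (0.28, limma adjusted p = 0.402) did not pass. ALB, albumin, was at 3447 and 2684 RPKM in Huh1 and at 1166 and 720.7 in Huh7 (-0.53, SE 0.0814, limma adjusted p = 0.0112). Between lines, 7 were higher in Huh1, against 28.7% of all genes, and 2 in Huh7, against 42.5%. Whether the fall of these markers bears on the rise of VIM was not tested, and in RNA from whole cultures fewer cells of a type and less RNA per cell cannot be told apart.

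Markers of fibroblasts and stellate cells lay on the Huh7 side with VIM. Of 8 measured, 6 were tested and all 6 were higher in Huh7, against 42.5% of all genes. With CDCA8siRNA, 1 (LUM) was higher, against 3.74%. Only LUM reached 1 RPKM in a Huh1 library, so for the others the direction between lines was largely set by the filter. All 8 are also among the other mesenchymal genes above and are no separate result. Their summed level was 12.1 and 25.9 RPKM in Huh1, nearly all of it LUM, and 299.8 and 388.4 in Huh7. DCN and PDGFRB, further markers of these cells, were under 1 RPKM in all libraries. Endothelial markers summed to at most 0.0247 RPKM in any library over the 3 measured, and CDH5 was at 0 in all 4. Of 5 leukocyte markers, CD68 alone was tested, at 23.3 and 16.5 RPKM in Huh1 and 3.71 and 3.73 in Huh7, and PTPRC, CD3E and CD14 stayed under 1 RPKM. Of 4 cholangiocyte markers, 3 were higher in Huh7 (EPCAM, KRT19 and SOX9), against 42.5% of all genes, and 1 in Huh1 (KRT7), against 28.7%. EPCAM, KRT19 and KRT7 were already counted among the other epithelial genes. For siRNA, 0 of the 4 passed limma, where 3.74% of all genes were higher and 2.65% lower. At an unadjusted limma p under 0.05 there was 1 of the 4, where 2767 of all 12148 genes tested were. The summed level of the 4 markers was 113.7 and 122.7 RPKM in Huh1 and 164.2 and 168.5 in Huh7. The part of the fibroblast markers in the VIM difference between lines was not tested.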

How the data were processed

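RNA of 4 libraries was sequenced from TruSeq kits, 1 per cell line and siRNA. Per the submitters' processing notes, CASAVA 1.8.2, TopHat2 2.0.9 and build hg19 were used, and the counting tool was not given in the sources used here. The authors deposited 1 RPKM value per RefSeq transcript, with the reads divided by transcript length and library depth, a unit deduced from the values. Between 31.9% and 35.0% of low values were whole reads within 0.05, too few to recover counts, so no count test was run.

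Gene positions and lengths are from GENCODE 29 (GRCh38), which gave 17768 rows a length by RefSeq identifier. The deposited values carry no coordinates, and reads per gene derived from these lengths are approximate. The linear model (limma 3.58.1, R 4.3.3) had cell line and siRNA as terms on log2(RPKM + 1), used lmFit and eBayes with a trend, took every gene that reached 1 RPKM in some library, and was tested on simulated data. Within lines, libraries were compared without a test. Named genes were the 10 markers, CDCA8, list genes that passed limma (adjusted p under 0.05) or changed 2-fold, and the 2 nearest patterns of markers spanning at least 1 log2 unit. Other named genes were chosen after their values were seen. The members and lists were chosen with earlier results of these data known. Python 3.11.15, numpy 2.4.6, pandas 2.3.3 and matplotlib 3.10.9 were used. Alternatives were another pseudocount (0.1 RPKM), filters (none, 5 RPKM), scalings and fits. Alternatives for the difference between lines were added after seeing the data. Values of some genes that the rule or the lists hold are not reported here.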

Additional observations from a re-analysis of the deposited data

Results flagged for a closer look

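Of the 8 genes that reached 1 RPKM in both cell lines, 6 had changes with CDCA8siRNA of opposite signs in the 2 lines. With 1 library per condition the difference was not tested. The share of all genes with opposite signs was not worked out, so the count is not a property of these genes. As a difference of log2 changes, Huh7 minus Huh1, it was -0.73 for KRT18, -0.55 for KRT8 and 0.39 for FN1. It was -0.32 for CDH2, 0.42 for SNAI1 and 0.082 for CDH1. For SNAI1 and CDH1 it was 1.65 and 0.83 times its sampling SD, within 2 times, and for CDH2 it was 4.59 times. The sign of CDH1 in Huh7 turned negative with quantile normalization, at -0.02, so it no longer opposed Huh1. ZEB2 and SNAI2, which were under 1 RPKM in Huh1, also had opposite signs, with -0.01 in Huh1 and 0.52 in Huh7 for ZEB2 from 12.5 and 11.1 reads in Huh1.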

How the results depend on the processing

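Over all genes, 776 passed limma for siRNA. The count was 0 without the filter on low values (2050 at an unadjusted p under 0.05), 1260 with quantile normalization, 45 without the trend (2490 unadjusted) and 0 with the cell line left out (75 unadjusted). Without the filter the adjusted p of CDCA8 itself was 0.445, and with the cell line left out it was 1.0. For cell line, 8654 passed, and 5433 without the filter. With a pseudocount of 0.1 RPKM, the 2-fold count was 164 in place of 54 in Huh1 and 422 in place of 182 in Huh7. Of the single-gene values, 229 kept their direction and side of the threshold or moved by less than about 2 times the sampling SD. A further 12 moved by more, 10 lost a call, 2 gained one and 0 were counted as reversed. Within a cell line only a 2-fold change could be counted as reversed, and none of the 10 genes had one. For VIM, quantile normalization brought the difference between lines in its siRNA effect from -0.18 to -0.00161. With the same normalization the siRNA effects over both lines of KRT18, KRT8 and SNAI1 were -0.01, -0.11 and 0.12, and the ZEB1 change in Huh1 was 0.07, each over 1.5 times smaller. Leaving out a library was not possible within a condition. The cell line pairs the libraries and is a term of the model, so the values given are paired ones, and no block by replicate number was made because the labels give none. Depth limits SNAI2, with 1.9 to 3.2 reads per library, and ZEB2 in Huh1, with 12.5 and 11.1.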
